A study of Nicotiana tabacum with 6 samples.

Results

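PI-Ia (ncbi_107787825), PI-Ib (ncbi_107794480) and PR-5dB (ncbi_107787812) are 3 defence protein genes of tobacco (Nicotiana tabacum), taken by their gene numbers from a deposited table of 68476 loci. They were selected on their FPKM difference between the study's groups, so their levels in these groups are given as a description and without a test. The study sequenced poly(A) RNA of mature leaves in 3 wild-type libraries (labelled WT) and 3 libraries of plants overexpressing NtispH (labelled OE-NtispH), the last enzyme of the plastidial pathway to the building blocks of terpenoids. The labels give neither the age of the plants, nor the promoter of the transgene, nor whether a group holds several plants or lines. The spread between libraries may therefore be technical. Values are FPKM, fragment counts divided by transcript length and by the mapped fragments of the library, a level that can be compared between genes.

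PI-Ia and PI-Ib, also listed as TIMPb and TIMPa, encode proteinase inhibitors of the inhibitor I class. Such proteins block serine proteinases of leaf-eating insects and of microbes. PR-5dB was grouped with them as an inhibitor, but its name places it in another family, the PR-5 or thaumatin-like proteins. Osmotin, a basic antifungal protein stored in the vacuole, is the best-known member of that family in tobacco. Genes of both families are known as targets of wounding, jasmonate and ethylene signals. Their transcripts typically build up over hours, after the early signalling genes of the same responses.

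The locus read for the target gene did not follow the labels. ISPH (LOC107760258), taken as the overexpressed gene, stood at 108, 3038 and 559 FPKM in the WT libraries, in the order of replicates 1, 2 and 3. In the OE-NtispH libraries it stood at 2761, 685 and 854 FPKM in the same order. Its highest value was in a library labelled WT. Whether fragments of the transgene were listed at this locus was not tested. Every direction below is therefore between libraries labelled OE-NtispH and libraries labelled WT. The libraries carried leaf transcripts. All 16 nuclear leaf markers matched in the table (photosystem, antenna and Calvin cycle genes) were present, with a summed level of 29130 to 32270 FPKM in WT and 21300 to 25380 in OE-NtispH. Of 8 root markers 5 were listed at 0 in every library, the 4 putrescine N-methyltransferase genes and A622. QPT2A averaged 31.1 FPKM in WT against 29.7 in OE-NtispH, QPT1B 5.96 against 5.89, and RT-TIP 0.643 against 1.37. Of 3 flower markers, GLO and STIG1 were listed at 0 throughout and AG1 at 0 in all libraries but one, where it was at 0.054 FPKM. The trichome marker NtABS (abienol synthase) averaged 10.5 ± 1.12 FPKM in WT against 10.7 ± 1.03 in OE-NtispH (SD, n = 3). The share of total FPKM taken by the top 100 loci was 30.6% to 32.2% in WT and 23.4% to 26.5% in OE-NtispH. The leaf marker sum and this share differed between the groups in the direction opposite to the 3 genes, and their part in the results was not tested. In RNA from whole leaves, fewer cells of a type and less RNA per cell cannot be told apart.

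All 3 genes were abundant in both groups and higher in the libraries labelled OE-NtispH. PI-Ia was at 258, 174 and 127 FPKM in the WT libraries and at 834, 520.2 and 732 in the OE-NtispH libraries, each in the order of replicates 1, 2 and 3. The lowest OE-NtispH value was 2.01 times the highest WT value. The means were 186.6 ± 66.5 and 695.4 ± 160.0 FPKM (SD, n = 3), a 3.73-fold difference. By mean level PI-Ia was the 411th most abundant of 40725 tested loci in WT and the 142nd in OE-NtispH.

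PI-Ib was at 246, 147 and 130.5 FPKM in the WT libraries and at 678, 460.3 and 722 in the OE-NtispH libraries, in the same order of replicates. Its groups did not overlap either, with the lowest OE-NtispH value 1.87 times the highest WT value. The means were 174.3 ± 62.4 and 619.9 ± 140.0 FPKM (SD, n = 3), a 3.56-fold difference.

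PR-5dB was at 289, 261 and 184 FPKM in the WT libraries and at 504, 399 and 719 in the OE-NtispH libraries. Here the gap was narrower, the lowest OE-NtispH value being 1.38 times the highest WT value. The means were 244.3 ± 54.5 and 540.8 ± 163.5 FPKM (SD, n = 3), a 2.21-fold difference. In WT the osmotin-class gene was thus listed above both inhibitors, and in OE-NtispH below both. This order of levels held in each WT library, and in each OE-NtispH library PR-5dB was below both inhibitors.

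**Figure D1:**
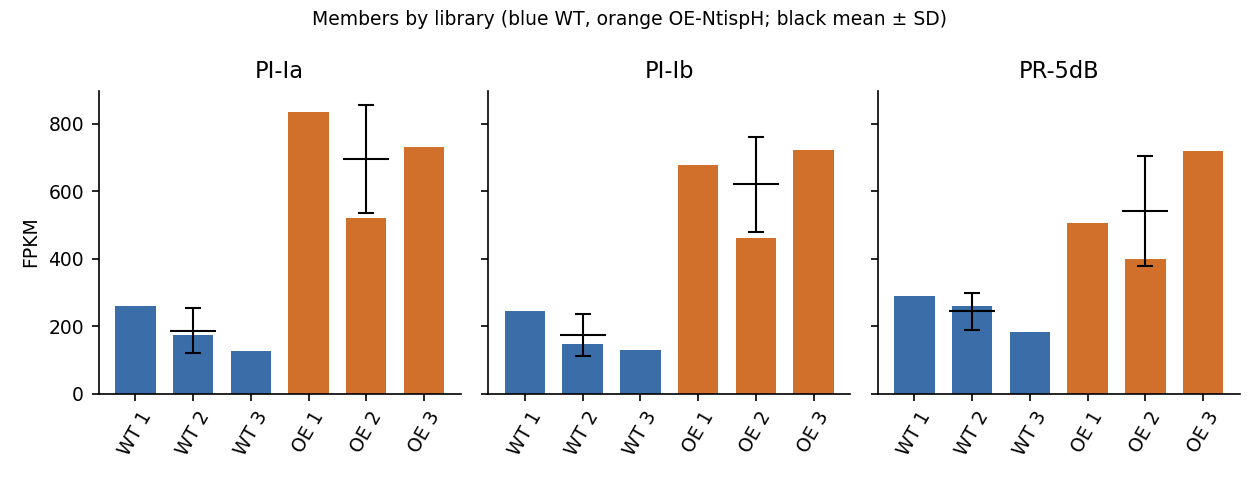
Bars give the FPKM of PI-Ia, PI-Ib and PR-5dB in each of the 6 libraries (OE, OE-NtispH), and the black marks give the mean ± SD of each group (n = 3). For each gene all 3 OE-NtispH libraries stand above all 3 WT libraries, with OE-NtispH replicate 2 the lowest of its group and WT replicate 3 the lowest of all.

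On the log2(FPKM + 1) scale the differences were 1.93 for PI-Ia, 1.85 for PI-Ib and 1.13 for PR-5dB. The median difference over all tested loci on that scale was 0.13, and relative to it each value is lower by that amount. Groups without overlap and with OE-NtispH higher were common in this table. They made up 23.9% of the tested loci, and 32.5% with both directions counted. The 3 genes were chosen for this difference, so nothing is read from their place in that share. A log2 difference of 1 or more in favour of OE-NtispH was less frequent, at 1.58% of the tested loci. All 3 genes would have passed the filter of 0.5 FPKM on the mean in either group alone, their lowest value in any library being 127 FPKM.

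The 2 inhibitor genes had similar levels in each library. The ratio of PI-Ia to PI-Ib was 1.05, 1.19 and 0.975 in the WT libraries and 1.23, 1.13 and 1.02 in the OE-NtispH libraries. It thus spanned 1.26-fold over the 6 libraries. PI-Ia itself spanned 6.55-fold and PI-Ib 5.53-fold, but these spans include the group difference for which both were chosen. Within WT the 2 genes spanned 2.03-fold and 1.88-fold, with ratios of 0.975 to 1.19. Within OE-NtispH they spanned 1.60-fold and 1.57-fold, with ratios of 1.02 to 1.23. The ratio averaged 1.07 ± 0.108 in WT and 1.12 ± 0.108 in OE-NtispH (SD, n = 3), and its values overlapped between the groups. PI-Ib supplied 44.8% to 50.6% of the summed level of both. That sum was 504, 321 and 258 FPKM in the WT libraries and 1512, 981 and 1454 in the OE-NtispH libraries. Fragments that match both copies may have been divided between them, which would draw the 2 values together. The sum does not depend on such a division, and its means were 360.9 ± 128.1 and 1315 ± 291.4 FPKM (SD, n = 3).

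Across both groups, PR-5dB did not keep such a fixed proportion to the inhibitors. Its ratio to PI-Ia was 1.12, 1.5 and 1.44 in the WT libraries and 0.605, 0.766 and 0.983 in the OE-NtispH libraries. These ratios span 2.47-fold, and every WT value lies above every OE-NtispH value. That span and that separation include the group difference for which these genes were chosen, which was 2.21-fold for PR-5dB and 3.73-fold for PI-Ia. Within a group the ratio ran from 1.12 to 1.5 in WT and from 0.605 to 0.983 in OE-NtispH. The ratio of PR-5dB to PI-Ib ran from 1.18 to 1.78 in WT and from 0.744 to 0.997 in OE-NtispH. Ratios within a library do not move when a whole library is rescaled.

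**Figure D2:**
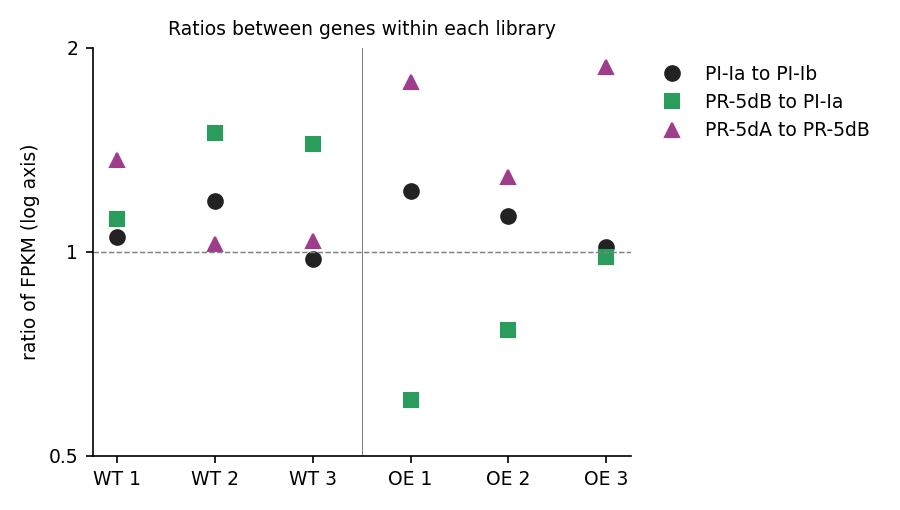
Points give ratios of FPKM between pairs of genes within each library, on a log axis, for WT (left) and OE-NtispH (OE, right). The ratio of PI-Ia to PI-Ib stays between 0.975 and 1.23, while that of PR-5dB to PI-Ia runs from 0.605 to 1.5 and is lower in each OE-NtispH library than in each WT library. The ratio of PR-5dB to PI-Ia includes the group difference for which these genes were chosen.

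For PI-Ib and PR-5dB the order from high to low was OE-NtispH replicates 3, 1 and 2, then WT replicates 1, 2 and 3. PI-Ia differed from this by a single exchange, with OE-NtispH replicate 1 above replicate 3. That the OE-NtispH libraries come before the WT libraries follows from how the genes were chosen, so only the order within each group is compared. Of the 6 pairs of libraries within a group, PI-Ia and PI-Ib ranked 5 the same way, PI-Ia and PR-5dB 5, and PI-Ib and PR-5dB 6. Within WT the order was the same for all 3 genes, and 24.8% of the tested loci had it. Within OE-NtispH 19.5% of the tested loci had the order of PI-Ib and PR-5dB and 18.5% that of PI-Ia. These within-group orders were thus common in the table.

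The spread within a group was similar for the 3 genes. From the lowest to the highest WT library PI-Ia differed 2.03-fold, PI-Ib 1.88-fold and PR-5dB 1.57-fold. In OE-NtispH the same spans were 1.60-fold, 1.57-fold and 1.81-fold. The order by ISPH was another one. WT replicate 2, with the highest ISPH level of all, was the middle WT library by each of the 3 genes, and WT replicate 1, with the lowest ISPH level, was the highest WT library by each of them.

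In the RefSeq gene table of the assembly ASM71507v2, PR-5dB and PI-Ia are close neighbours in the order of loci. Between them lies 1 locus, AP24 (LOC107787819), another osmotin-class gene, and on the other side of PR-5dB follows LOC107787802, which has no gene name. PI-Ib stands on another chromosome at the end of a row of like make-up. That row holds LOC107794477, PR-5dA (LOC107794478, also listed as osmotin), LOC107794479 and PI-Ib, in this order. In both rows a PR-5 gene is the next to first and an inhibitor gene the last, with no annotated locus between neighbours. The rows were singled out after their values had been seen, and the assembly the authors used is not given in the sources used here.

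The 5 loci of these rows that are not among the 3 chosen genes were all higher in OE-NtispH without overlap between the groups, against 23.9% of all tested loci. Over the 8 loci the ratios of means ran from 1.48 to 4.43. In the row of PI-Ia they were 2.10 for LOC107787802, 2.21 for PR-5dB, 1.66 for AP24 and 3.73 for PI-Ia. In the row of PI-Ib they were 4.43 for LOC107794477, 3.24 for PR-5dA, 1.48 for LOC107794479 and 3.56 for PI-Ib. In each row the locus next to the inhibitor had the smallest ratio and the highest WT level of the row.

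The 5 neighbours that are not among the 3 genes followed much the same libraries. AP24 was at 529, 525 and 356 FPKM in the WT libraries and at 771, 663 and 908 in the OE-NtispH libraries. PR-5dA was at 395, 268 and 190.2 FPKM in the WT libraries and at 898, 515 and 1346 in the OE-NtispH libraries. In 7 of the 8 loci the WT libraries fell in the order 1, 2 and 3, LOC107794477 being the exception. Of all tested loci 24.8% had this WT order. OE-NtispH replicate 2 was the lowest of its group in 7 of 8, all but LOC107794479. Replicate 2 was also lowest in the 18.5% of all tested loci with the order 1, 3, 2 and the 19.5% with 3, 1, 2. OE-NtispH replicate 3 was the highest in 7 of 8, all but PI-Ia, and the share of all tested loci with this was not counted. These counts include the 3 chosen genes.

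LOC107794479 and AP24, the third loci of the rows, had the levels that lay closest together after those of the inhibitors, with a ratio of 0.987 to 1.26 over the 6 libraries. The ratio of PR-5dA to PR-5dB, the second loci, was 1.37, 1.03 and 1.04 in the WT libraries and 1.78, 1.29 and 1.87 in the OE-NtispH libraries. These PR-5 genes therefore did not keep the even balance of PI-Ia and PI-Ib. The first loci differed most, LOC107794477 having 0.111 to 0.316 times the FPKM of LOC107787802. Near-identical sequence between the rows could let fragments of one locus be listed at another, and this was not tested.

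The loci around the rows were lower and more mixed. Of the 5 nearest loci with a value on each side of each row, 20 in all, 4 were listed at 0 in every library, 14 reached a mean of 0.5 FPKM, and none exceeded 88.0 FPKM in any library. Of these 14, 6 were higher in OE-NtispH without overlap, against 23.9% of all tested loci. Their ratios of means ran from 0.770 to 2.48. LOC107781891 and LOC107775041 among them had the full library order of PI-Ib, and others did not. Next to PI-Ia the nearest such locus on the outer side, LOC107787786, was listed at 0 in every library, as was LOC107794482 next to PI-Ib.

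**Figure D3:**
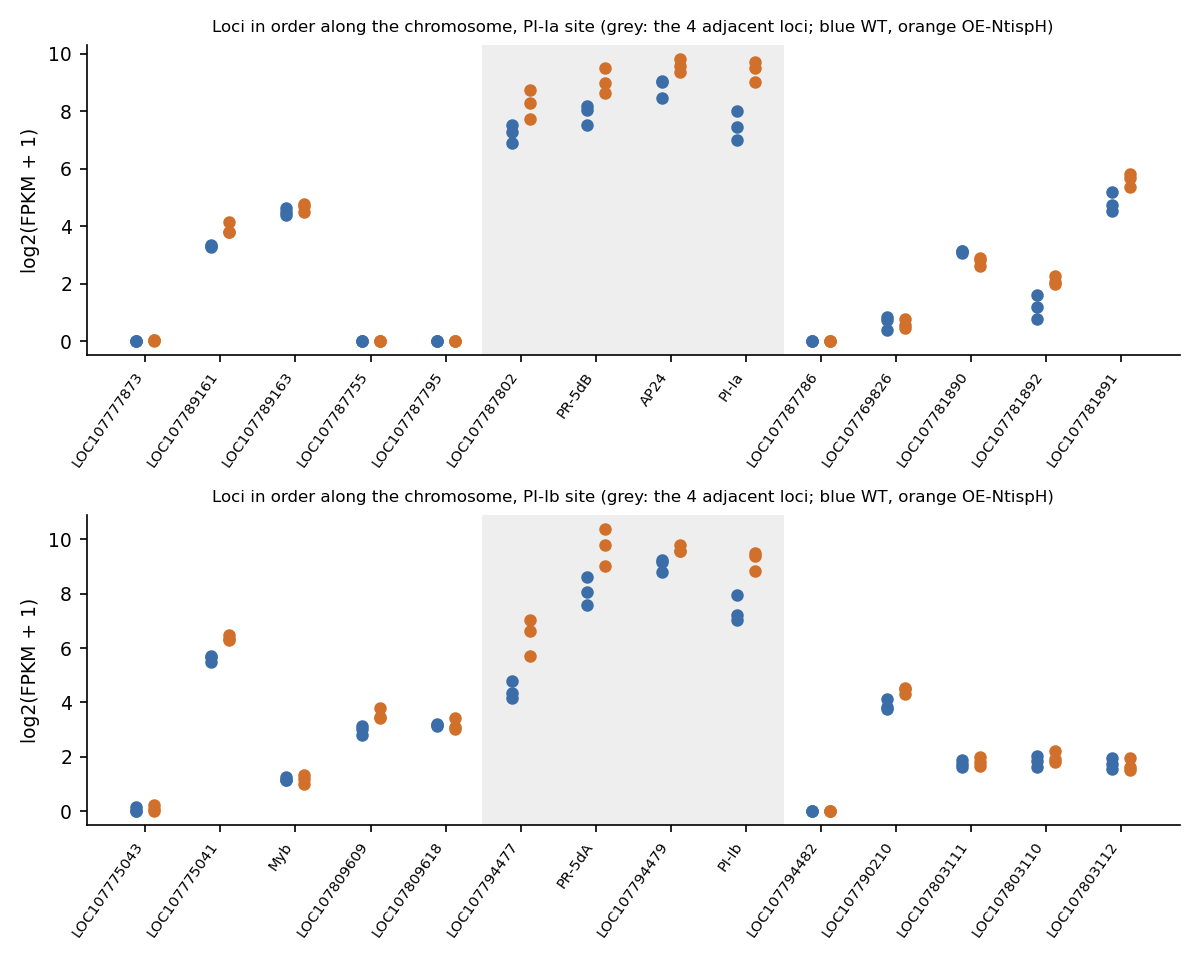
Each point is 1 library's log2(FPKM + 1) at loci shown in their order along the chromosome, evenly spaced, around PI-Ia and PR-5dB (top) and around PI-Ib (bottom), with WT in blue and OE-NtispH in orange. The 4 adjacent loci of each row (grey) stand above most of their neighbours, and their groups do not overlap, with the lowest of the 8 being LOC107794477 at 21.0 FPKM in WT.

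Other genes of pathogenesis-related proteins and inhibitors were taken from a list made by gene symbol. It matched 20 loci besides the 3 genes, of which 11 averaged 0.5 FPKM or more and were tested. All 11 had a difference above 0 on the log2(FPKM + 1) scale (10 of 11 with median-of-ratios scaling or quantile normalization, where cbp20 turned to -0.03 and -0.02), with a median of 0.43 beside 0.13 for all tested loci. It was also 10 of 11 without WT replicate 1, where PR-4A turned to -0.05, and without OE-NtispH replicate 2, where PR-4B turned to -0.02. ThiI, a further match left out after its value was seen, was tested and lay below 0, at -0.21. Since the median of all tested loci was above 0, most of them had a difference above 0 too, and their share was not counted. The groups did not overlap in 3 of the 11 (AP24, PR-5dA and CHN14), a share near the 23.9% of all tested loci. One of the 11 passed the test and none was lower past it (limma, Benjamini-Hochberg adjusted p under 0.05). In the same fit 1.24% of all tested loci passed as higher, 0.567% as lower and 1.81% in either direction. This split of 506 higher and 231 lower loci turned to 124 and 188 with median-of-ratios scaling and to 235 and 360 with quantile normalization. At an unadjusted p under 0.05 there were 4 of the 11, and 26.4% of all tested loci.

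The gene that passed was CHN14 (LOC107784434), named as a chitinase, an enzyme class that cleaves fungal cell walls. It stood at 14.6, 17.3 and 12.7 FPKM in the WT libraries and at 38.4, 29.2 and 27.4 in the OE-NtispH libraries. CHN14 rose 2.13-fold, from 14.8 ± 2.32 to 31.7 ± 5.93 FPKM (SD, n = 3). Its log2 difference was 1.04 with a standard error of 0.164 (adjusted p = 0.0347 by limma). The call changed with libraries and settings, while the log2 difference stayed at 0.897 to 1.15 with 1 library left out. The adjusted p (limma) was 0.0826, 0.145 and 0.115 without WT replicates 1, 2 and 3 in turn, and 0.105 without OE-NtispH replicate 1. In these fits 0, 1, 16 and 0 of all tested loci passed. Without OE-NtispH replicates 2 and 3 the adjusted p (limma) was 0.0365 and 0.0104. With all libraries it was 0.0516 with median-of-ratios scaling and 0.063 without a filter. It was 0.0598 without trend and robust prior, 0.0615 with a replicate block, and under 0.05 with the remaining settings.

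PR-5dA averaged 284.2 ± 103.3 FPKM in WT against 919.5 ± 416.2 in OE-NtispH (SD, n = 3), a 3.24-fold difference that missed the threshold (adjusted p = 0.0757 by limma). AP24 averaged 470.0 ± 98.4 against 780.5 ± 122.8 FPKM (SD, n = 3), with an adjusted p of 0.0745 by limma. The basic class I chitinases, vacuolar proteins like osmotin, overlapped between groups. CHN50 (LOC107826794) averaged 435.4 ± 58.6 FPKM in WT against 591.9 ± 119.9 in OE-NtispH (SD, n = 3), with an adjusted p of 0.174 by limma. CHN48 (LOC107759005) averaged 69.8 ± 24.6 against 150.9 ± 71.9 FPKM (SD, n = 3), with an adjusted p of 0.254 by limma. CHN48 was highest in OE-NtispH replicates 2 and 3, at 196 and 189 FPKM, and stood at 68.0 in replicate 1, below the 89.0 of WT replicate 3.

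The remaining tested genes of the list were lower or varied more between libraries. The class V chitinase gene chi-V averaged 65.2 FPKM in WT against 84.0 in OE-NtispH, and the acidic chitinase gene PR-P 6.00 against 15.9. The PR-P values in OE-NtispH were 20.9, 23.8 and 2.97 FPKM in replicates 1, 2 and 3, so replicate 3, the highest library for PI-Ib and PR-5dB, was the lowest of its group here. Thaumatin-like E22 (4.12 and 5.43 FPKM), PR-4A (3.62 and 4.00), PR-4B (0.733 and 1.42) and cbp20 (3.8 and 4.14), the last for a chitin-binding protein, overlapped between the groups.

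The 9 list members below the filter included PR-1B and PR-1C, classical acidic markers of the salicylate response. The acidic chitinase gene PR-P was not among them. Those named here were chosen after their values were seen. PR-1B, PR-1C and the glucanase gene Sp41a were listed at 0 in every library. PR-R, an acidic thaumatin-like gene of the same family as PR-5dB, had a mean of 0.291 FPKM in WT against 0.203 in OE-NtispH. PIN2T, whose symbol is that of an inhibitor II gene, was listed at 0 in all WT libraries and at 0.052 FPKM or less in OE-NtispH. GGL4 was at 0, 0.141 and 0.135 FPKM in WT and at 0.363, 0.772 and 0.2 in OE-NtispH, without overlap. The abundant genes of the list were thus the inhibitor I genes, the osmotin-class genes, CHN50, CHN48 and chi-V.

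**Figure D4:**
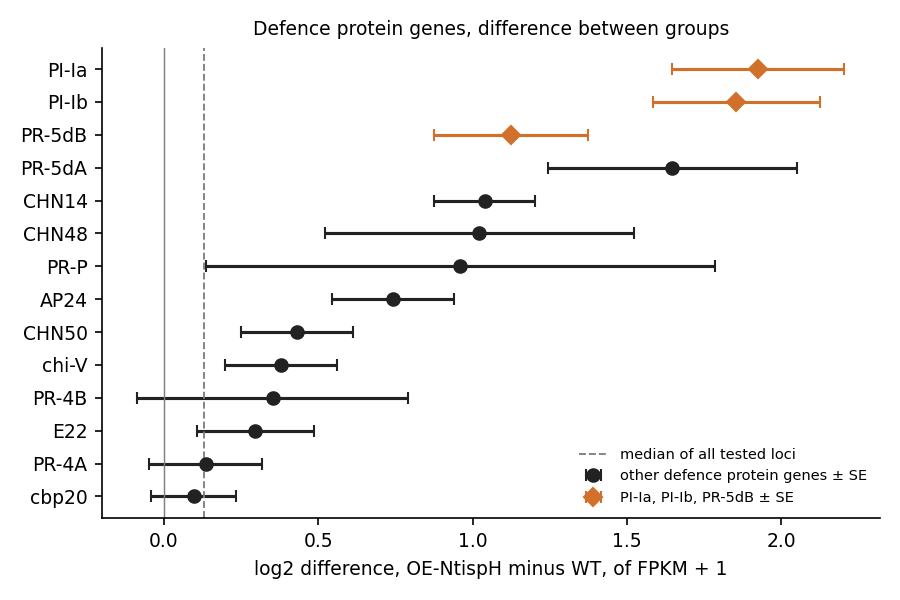
Points give the log2 difference of FPKM + 1 between OE-NtispH and WT, with its standard error from limma, for PI-Ia, PI-Ib and PR-5dB (orange, description only) and for the 11 other tested defence protein genes (black). All lie above 0, and the dashed line is the median of all tested loci, 0.13. ThiI, left out of the list after its value was seen, lies at -0.21 and is not shown. Below 0 turn cbp20 with median-of-ratios scaling or quantile normalization, PR-4A without WT replicate 1 and PR-4B without OE-NtispH replicate 2.

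Genes of the jasmonate and wound response were compared by library, since the inhibitors are known targets of it. Of 23 such loci matched by symbol, 14 were tested, 10 with a difference above 0 and 4 below, with a median of 0.43 on the log2(FPKM + 1) scale beside 0.13 for all tested loci. Without WT replicate 3, and likewise without OE-NtispH replicate 3, 13 of the 14 were above 0. Most of all tested loci were above 0 too, since their median was, and their share was not counted. None of the 14 passed (limma, adjusted p under 0.05), against 1.81% of all tested loci, and 6 had an unadjusted p under 0.05, against 26.4%. The smallest p-values were those of NtJAZ2, NtSIPK and SIPKK. NtJAZ2 (LOC107767538), a repressor of jasmonate signalling that is itself jasmonate-induced, averaged 81.4 ± 9.12 FPKM in WT against 154.3 ± 44.4 in OE-NtispH (SD, n = 3), with an adjusted p of 0.0714 by limma. NtSIPK, a protein kinase of the wound response, averaged 10.8 ± 1.12 against 15.1 ± 1.85 FPKM (SD, n = 3), with an adjusted p of 0.0899 by limma. SIPKK, the kinase that acts on it, averaged 12.5 ± 1.74 against 19.4 ± 6.37 FPKM (SD, n = 3), with an adjusted p of 0.154 by limma.

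Some early genes of these responses were at their highest where the 3 genes were at their lowest. They were picked after their values were seen. WIPK, WIZZ and KED, all known as genes induced soon after wounding, the first for a protein kinase and the next for a transcription factor, were highest in WT replicate 3, at 54.6, 57.1 and 56.8 FPKM. In the other 5 libraries WIPK ran from 14.0 to 29.8 FPKM, WIZZ from 4.28 to 9.29 and KED from 2.12 to 15.2. In WT replicate 3 PI-Ia, PI-Ib and PR-5dB had the lowest of their 6 values. Other tested genes of the jasmonate and wound list went the other way, and these too were picked after their values were seen. NtSIPK, SIPK, OPR1 and ODC had their lowest value in WT replicate 3, as PI-Ia, PI-Ib and PR-5dB did. The remaining tested genes of the list had neither their highest nor their lowest value there.

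Some genes of the jasmonate and wound list, also picked after their values were seen, separated the OE-NtispH libraries in another way. The allene oxide cyclase gene aoc, for a step of jasmonate synthesis, was at 128, 117 and 8.16 FPKM in the OE-NtispH libraries and at 16.1, 15.7 and 22.1 in the WT libraries. The lipoxygenase gene Lox1 was at 11.4, 14.0 and 2.29 FPKM in OE-NtispH replicates 1, 2 and 3, and the ornithine decarboxylase gene ODC at 17.3, 6.10 and 1.22. In OE-NtispH replicate 3 aoc was below every WT library, ODC was within the WT range of 0.309 to 1.3 FPKM and Lox1 was just above the highest WT value of 2.25, whereas PI-Ib and PR-5dB were at their highest there. AOS, opr3 and OPR1, picked in the same way, differed less than aoc between the groups. For opr3 the OE-NtispH values were 52.1, 44.0 and 27.1 FPKM, the last within the WT range of 26.4 to 29.7. The allene oxide synthase gene AOS was at 13.4, 14.7 and 8.5 FPKM in the OE-NtispH libraries and at 13.4, 11.1 and 14.1 in the WT libraries. OPR1, named as an oxophytodienoate reductase, was at 6.93, 7.37 and 5.34 FPKM in the OE-NtispH libraries and at 5.54, 4.75 and 3.79 in the WT libraries.

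**Figure D5:**
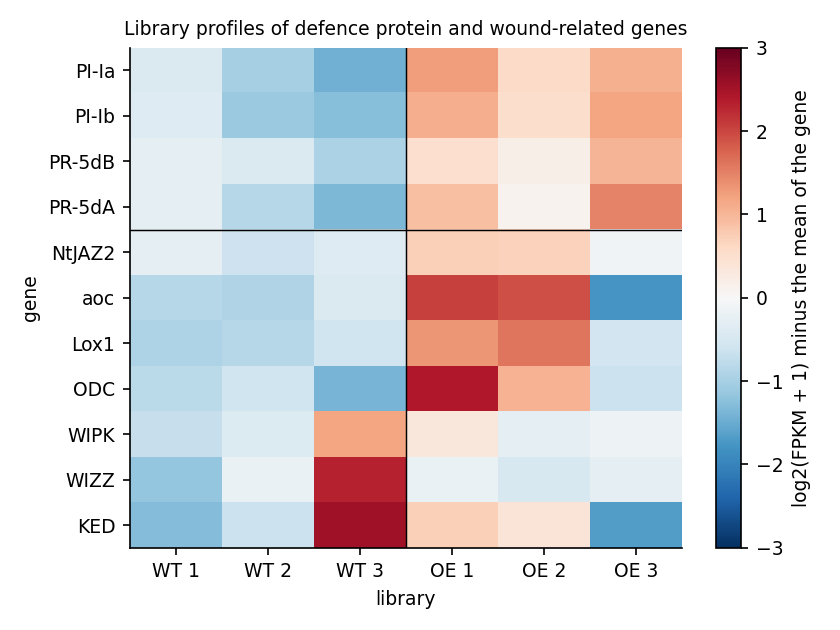
Colours give log2(FPKM + 1) minus the mean of the gene over the 6 libraries, for PI-Ia, PI-Ib, PR-5dB and PR-5dA (top) and for 7 jasmonate and wound genes (bottom), in WT and OE-NtispH (OE) libraries. The upper genes are higher in each OE-NtispH library than in each WT library, while aoc, Lox1 and ODC are high in OE-NtispH replicates 1 and 2 alone and WIPK, WIZZ and KED are highest in WT replicate 3.

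Likeness to the 3 genes was measured over the 6 libraries as the root-mean-square difference between a gene's log2(FPKM + 1) values and the mean profile of the 3, each centred on its own mean. It was 0.179 for PI-Ia itself, 0.135 for PI-Ib, 0.293 for PR-5dB and 0.83 for the median tested locus. The nearest gene with a name was PR-5dA (0.218), the neighbour of PI-Ib, which ranked 15th of all loci. It was followed by gdh1 (0.305), for glutamate dehydrogenase, NCAPP1 (0.306), NtMFP (0.334), gln2 (0.336) and the cytochrome P450 gene CYP72A52v1 (0.344). The nearest loci without a name were LOC107789114 (0.11) and MSTRG.32870 (0.132). LOC107789114 stood at 27.2, 20.3 and 18.4 FPKM in the WT libraries and at 73.0, 54.9 and 77.0 in the OE-NtispH libraries, in the library order of PI-Ib. AP24 (0.476) and LOC107794479 (0.571), the loci between the PR-5 genes and the inhibitors, were farther from the mean profile, with log2 differences of 0.74 and 0.58.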

How the data were processed

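Per the labels' protocols, RNA extracted with Trizol was captured on oligo(dT) beads and copied with random hexamers, in a wording that describes dUTP strand marking. The authors deposited 1 table of FPKM values. RSEM, StringTie, HISAT2, Bowtie2 and fastp are named, without versions, per the submitters' processing notes. Neither the build and annotation nor the treatment of fragments that map to several copies is stated there. Gene names and neighbours came from the RefSeq table of ASM71507v2, in which 49268 of 61780 gene numbers matched. Start positions served only to put the loci of a chromosome in order, and distances were not computed.

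Values were analysed as log2(FPKM + 1). Loci averaging at least 0.5 FPKM, 40725 in all, were fitted with limma 3.58.1 in R 4.3.3 (intensity trend, robust, two-sided, Benjamini-Hochberg at 0.05, no replicate term), and the fit was tested on simulated data. Python 3.11.15, pandas 2.3.3, numpy 2.4.6 and matplotlib 3.10.9 were used for tables and figures. Read totals are unknown, so no counting interval can be given. Relative depth, read from the most frequent ratio of low values to those of WT replicate 1, was 1.02 to 1.17 in the remaining 5 libraries. FPKM sums were 747832 to 770304 per library.

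The 3 genes and the lists were chosen with earlier results of these data known. Named genes were the 3 genes, tested members of the defence list, the 3 jasmonate or wound genes of smallest p, ISPH, and the 6 named and 2 unnamed loci of nearest profile; others are marked as chosen after their values were seen. ThiI matched the defence list's symbol pattern but is not a defence protein by name and was left out, a choice applied once values had been seen. It averaged 2287 FPKM in WT against 1984 in OE-NtispH, a log2 difference of -0.21. A planned count over sequence homologues was not run, because no protein sequences were used here. Alternatives were another pseudocount, other filters, 3 scalings, limma without trend, a replicate block and leaving out each library.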

Additional observations from a re-analysis of the deposited data

How the results depend on the processing

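The differences of PI-Ia, PI-Ib and PR-5dB kept their direction under all 14 alternatives and moved by less than the spread between replicates. Leaving out 1 library at a time gave log2 differences of 1.68 to 2.19 for PI-Ia, 1.67 to 2.13 for PI-Ib and 0.9 to 1.32 for PR-5dB, and with median-of-ratios scaling they were 1.76, 1.69 and 0.961. The ratio of PI-Ia to PI-Ib had a geometric mean of 1.09, and of 1.07 to 1.12 with a library left out. The number of loci past the test moved far more. It was 737 as reported, 38 without a filter, 1375 at a mean of at least 2 FPKM, 312 with median-of-ratios scaling, 53 by limma without trend and robust prior, and 68 with a replicate block. It ran from 0 to 3109 with 1 library left out. Leaving out WT replicate 1, 2 or 3 gave 0, 1 and 16, and leaving out OE-NtispH replicate 1, 2 or 3 gave 0, 1356 and 3109. For the counts of 0 (limma), 10208 loci without WT replicate 1 and 7216 lacking OE-NtispH replicate 1 had an unadjusted p under 0.05. The cause was not tested.

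Among the defence list, 1 gene passed as reported and 0 without a filter, with median-of-ratios scaling, by limma without trend and robust prior, and with a replicate block. With 1 library left out the count ran from 0 to 2, the second gene being PR-5dA without OE-NtispH replicate 2 and PR-P without OE-NtispH replicate 3. Same-numbered libraries did not deviate together: the correlation across loci of their deviations was -0.13, 0.0449 and -0.16 for numbers 1, 2 and 3. Between libraries of different numbers it ran from -0.0941 to 0.193. Whether same-numbered libraries were handled together cannot be read from these values. Ranking likeness by mean Pearson correlation, which ignores the size of a difference, kept 1 of the 6 named genes. Depth limits are unknown without read counts, and at these levels all 3 genes were far above the filter.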
